A study of Homo sapiens with 18 samples.

Results

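The genes described here are 47 genes of DNA replication and of the E2F programme, among them E2F factors, origin licensing and helicase proteins, replicative polymerases, the sliding clamp and its loader, and enzymes of deoxynucleotide supply. They were taken by symbol from a list of members, out of 58870 genes in the count table, and all 47 were among the 15787 genes with enough counts to be tested. Before DNA is copied, the origin recognition complex with CDC6 and CDT1 loads the MCM2 to MCM7 ring onto origins, and CDC45 and the GINS complex then turn that ring into a moving helicase. Polymerases, the PCNA clamp and the RFC clamp loader follow the helicase. Many of these genes are transcribed at the passage from G1 into S phase by E2F factors, which the retinoblastoma protein holds back until cyclin-dependent kinases phosphorylate it.

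The data are bulk RNA sequencing of NCI-H295R, an established steroid-producing cell line from a human adrenocortical carcinoma. The 6 groups were untreated cells and cells given the HSP90 inhibitor STA9090 (ganetespib), the PI3K inhibitor PIK75, the dual PI3K and mTOR inhibitor BGT226, STA9090+PIK75 or STA9090+BGT226, for 48 h at a stated 20 nM. Each group had 3 biological replicates of this single line. How the dose was split in the combinations was not stated, and neither was a vehicle for the untreated cells.

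Library totals ran from 10.2 to 21.1 M expected counts. Of 8 markers of adrenocortical cells, 7 had enough counts to be tested, and CYP11B1 had 0 to 6 counts in a library. Of 14 markers of fibroblasts, endothelial cells and leukocytes, COL1A1 (7 to 192 counts) and CD14 (2 to 16 counts) were tested, and CDH5 and CD3E were at 0 in all 18 libraries. Neither passed the test below with BGT226 or with STA9090+BGT226, and with STA9090+PIK75 COL1A1 fell by 3.50 log2 and CD14 rose by 1.16. Of the 7 adrenocortical markers, 5 fell with PIK75, 3 fell and 3 rose with BGT226, 7 fell with STA9090+PIK75, and 3 fell and 3 rose with STA9090+BGT226. Of all genes tested, 10.2% fell with PIK75 and 20.1% with STA9090+PIK75. With BGT226 15.7% fell and 12.8% rose, and with STA9090+BGT226 20.4% fell and 19.4% rose. The part of the markers in the results was not tested. Exons of 21 of the 47 genes overlap an exon of another gene in GENCODE 29, and values are uncertain where reads were divided. Expected counts of POLA2, POLD1, PRIM1 and UHRF1 were fractional in several or all libraries, which shows divided reads. POLA2 shares 2012 exonic bases with AP000944.2 on the same strand. Expected counts of MCM2, CCNE2, PCNA, RRM2 and TYMS, whose overlaps or pseudogenes are given below, were whole numbers in every library.

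Most of the replication genes were lower with BGT226 than in untreated cells, and their median was lower again with STA9090+BGT226. A library's position was summarised as the median, over the 47 genes, of the log2 level (CPM, counts scaled to 1 M per library) minus that gene's mean in untreated cells. The untreated libraries stood at -0.00, 0.05 and -0.03. The BGT226 libraries stood at -0.37, -0.38 and -0.38, and the STA9090+BGT226 libraries at -0.65, -0.64 and -0.58. These 3 groups did not overlap. STA9090 alone gave -0.05, -0.07 and -0.03, PIK75 gave -0.12, -0.09 and -0.09, and STA9090+PIK75 gave -0.13, -0.08 and -0.05, so that every library of these groups lay above every BGT226 library. In 37 of the 47 genes the group mean fell in the order untreated, BGT226, STA9090+BGT226, and in 37 genes STA9090+BGT226 had the lowest mean of the 6 groups. The order of the means was not counted over all genes tested, so these counts have no background share. The 47 genes together took 0.296% ± 0.0189 (SD, n = 3) of all counts in untreated cells, 0.230% ± 0.00168 with BGT226 and 0.195% ± 0.00847 with STA9090+BGT226. In bulk RNA, fewer cells in S phase and less of these transcripts per cell cannot be told apart.

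**Figure D1:**
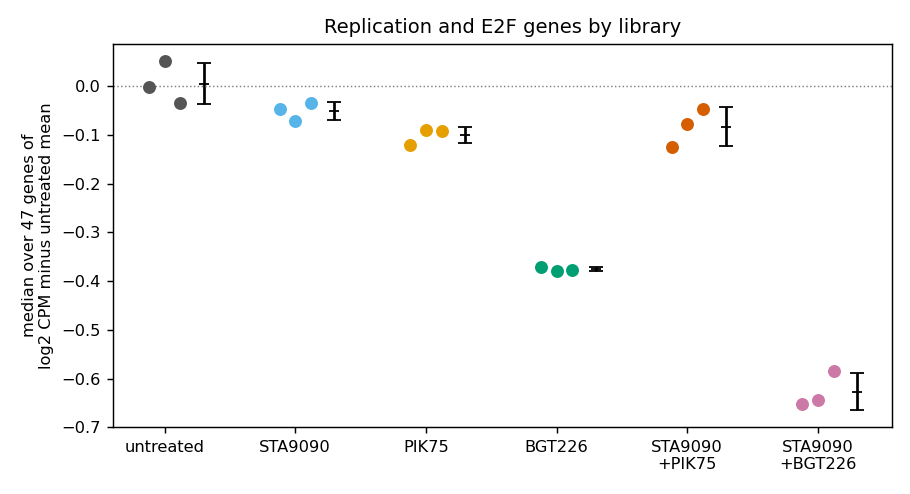
Median over the 47 genes of log2 CPM minus the gene's untreated mean (vertical axis, log2), for each of the 18 libraries (points) in 6 groups. The BGT226 libraries lie between -0.38 and -0.37 and the STA9090+BGT226 libraries between -0.65 and -0.58, below all other libraries.

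By edgeR's quasi-likelihood test, with Benjamini-Hochberg adjustment over all 15787 genes and a threshold of 0.05, 33 of the 47 genes (70.2%) fell and 0 rose with BGT226 alone, with a median log2 fold change of -0.37. Of all genes tested, 15.7% fell and 12.8% rose in that comparison. At an unadjusted p under 0.05, 0 of the 47 rose, and DESeq2 also called 0 higher and 31 lower. In 39 of the 47 genes all 3 BGT226 libraries lay below all 3 untreated libraries, against 23.3% of all genes tested. With STA9090+BGT226, 42 of 47 (89.4%) fell and 0 rose, with a median of -0.64, while 20.4% of all genes tested fell and 19.4% rose. There too 0 rose at an unadjusted p under 0.05 and 0 by DESeq2. The median over all genes tested was within 0.0323 of 0 in every comparison. Both comparisons use the same untreated libraries. Of the 33 falls with BGT226, those of POLD3, ORC1, CLSPN, GINS2, RFC3, TK1 and CCNE2 were lost in at least 1 of 11 alternative analyses, and of the 42 falls with STA9090+BGT226 those of CDC7, GINS4 and CDT1 were.

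With PIK75 alone, 7 of the 47 genes (14.9%) fell and 1 rose, with a median of -0.12, in a comparison where 10.2% of all genes tested fell and 8.49% rose. The falls were RRM2 (-0.88), E2F8 (-0.73), E2F2 (-0.66), CCNE2 (-0.49), CDC45 (-0.46), GINS3 (-0.32) and GMNN (-0.26), and the calls of GMNN and CCNE2 were lost in 9 and in 4 of 11 alternatives. The rise was POLD1 (0.57). With STA9090+PIK75, 11 (23.4%) fell and 6 (12.8%) rose, with a median of -0.04, and 20.1% of all genes tested fell and 18.3% rose. The widest falls were RRM2 (-1.22), E2F2 (-0.71), E2F8 (-0.50), PCNA (-0.39), POLE (-0.39) and UHRF1 (-0.37), and the rises were GINS4 (0.40), TIMELESS (0.38), ORC6 (0.37), RFC4 (0.36), MCM5 (0.28) and GINS2 (0.20). Of the 17 calls, 8 were lost in at least 1 of 11 alternatives, namely those of POLA2, RFC2, MCM4, E2F8, ORC6, MCM5, GINS2 and RFC4. The median of -0.04 became -0.10 without STA9090+PIK75 replicate 2 or replicate 3 and -0.09 without untreated replicate 3. With STA9090 alone, 0 of the 47 passed in either direction, with a median of -0.07, where 1.68% of all genes tested fell and 1.16% rose. At an unadjusted p under 0.05, 8 genes were lower and 2 were higher with STA9090, and DESeq2 called 3 lower. Without untreated replicate 2 the median was -0.042 for STA9090 and -0.078 for PIK75. The shares of members that fell in the PIK75, STA9090+PIK75 and STA9090 groups were thus near those of all genes. Fewer members rose, 1 of 47 with PIK75 against 8.49% of all genes, and 12.8% with STA9090+PIK75 against 18.3%.

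**Figure D2:**
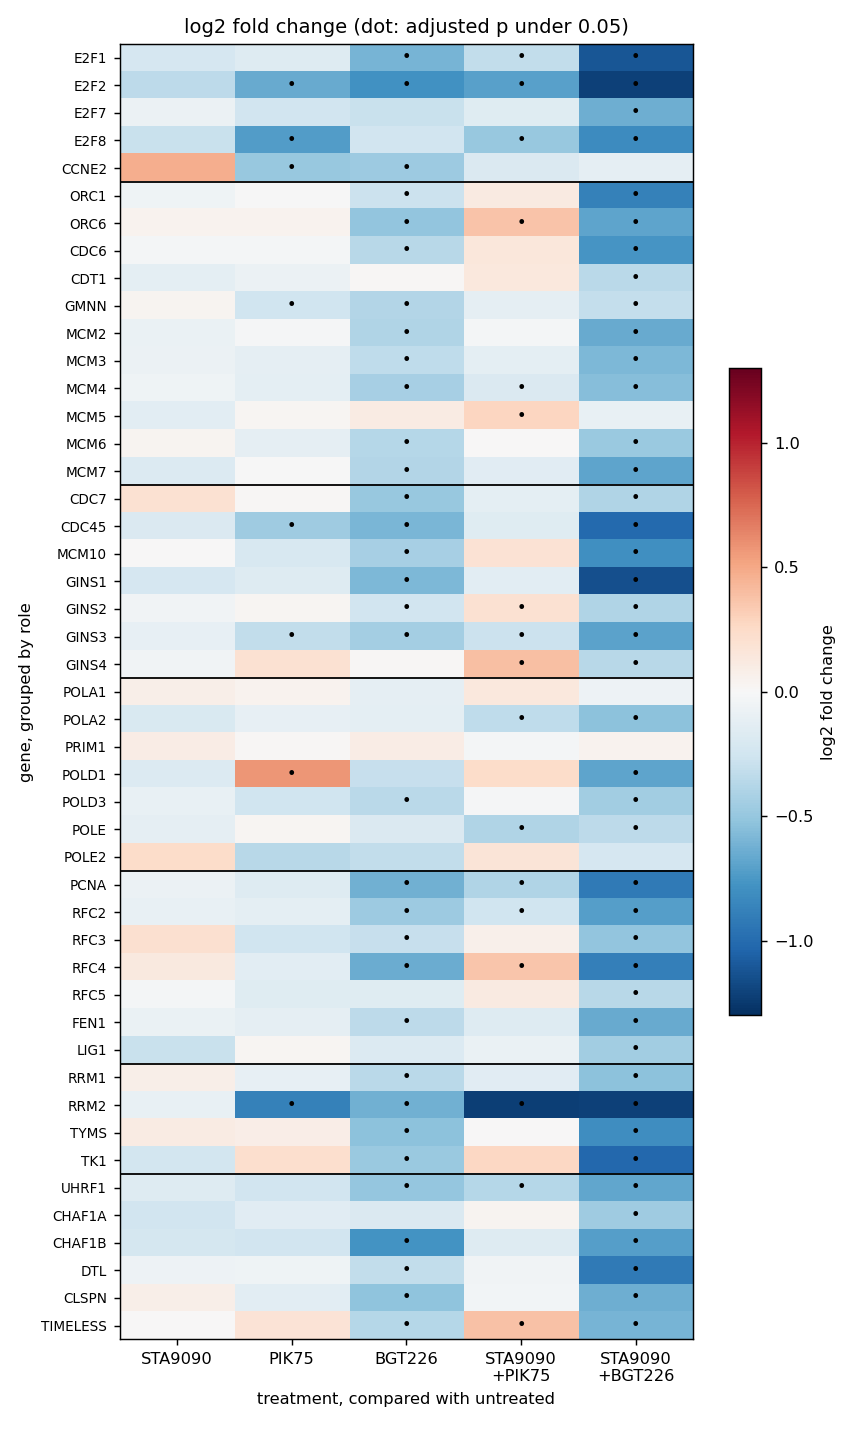
Log2 fold change of each of the 47 genes (rows, ordered by role) in the 5 treatment groups against untreated cells (columns). The BGT226 and STA9090+BGT226 columns hold 33 and 42 called falls, and the PIK75 column holds 7 falls and 1 rise.

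Of the E2F factors, E2F1 and E2F2 activate transcription, and E2F7 and E2F8 are repressors that are themselves induced late in the cycle. E2F1 (ENSG00000101412.13, chr20:33675683-33686404, minus strand, GRCh38) was at 73.7, 87.4 and 80.1 CPM in untreated cells. It was at 53.9, 53.9 and 51.5 CPM with BGT226, and at 38.6, 36.7 and 36.6 CPM with STA9090+BGT226. The 3 groups were stacked without overlap. E2F1 fell by 0.60 log2 with BGT226 (SE 0.0878, adjusted p = 3.79e-05) and by 1.11 with STA9090+BGT226 (SE 0.0897, adjusted p = 1.48e-08), that is by 34% and 53.6%, in edgeR's test. With PIK75 it was at 69.4, 66.5 and 78.5 CPM, which overlapped the untreated range (log2 fold change -0.17, adjusted p = 0.186, edgeR).

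E2F2 was lower in every inhibitor group than in any untreated library. Its levels were 42.1, 52.5 and 48.7 CPM untreated, 35, 40 and 38.1 with STA9090, 30.3, 27.4 and 33.3 with PIK75, 29.9, 27.6 and 25.9 with BGT226, 29.4, 30.1 and 28.5 with STA9090+PIK75, and 20.1, 17.9 and 23.5 with STA9090+BGT226. By edgeR's test it fell by 0.66 with PIK75, 0.79 with BGT226, 0.71 with STA9090+PIK75 and 1.22 with STA9090+BGT226 (adjusted p from 2.32e-08 to 0.000101), and the difference with STA9090 alone was -0.34 (adjusted p = 0.0607). The repressor E2F8 was a low gene, at 8.47, 7.24 and 8.46 CPM untreated, and at 5.23, 4.96 and 4.31 with PIK75 and 4.47, 4.15 and 5.02 with STA9090+BGT226. It fell with PIK75 (by 0.73, SE 0.19), STA9090+PIK75 (by 0.50, SE 0.186) and STA9090+BGT226 (by 0.81, SE 0.188), and with BGT226 alone its difference was -0.25 (SE 0.18, adjusted p = 0.322, edgeR). E2F7 fell with STA9090+BGT226, by 0.64, and passed in no other comparison with untreated cells.

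CCNE2 encodes cyclin E2, which activates CDK2 at the entry into S phase. Its levels were 8.02, 7.84 and 7.44 CPM untreated, 6.64, 6.06 and 3.8 with PIK75, 5.81, 5.34 and 5.61 with BGT226, and 7.02, 7.02 and 7.45 with STA9090+BGT226. It fell with PIK75 by 0.49 and with BGT226 by 0.48 (adjusted p = 0.0265 and 0.0192, edgeR), calls that were each lost in 4 of 11 alternatives. With STA9090 its 3 libraries, at 11.9, 10.4 and 9.84 CPM, lay above all untreated libraries, with a difference of 0.47 that missed the threshold (adjusted p = 0.0681, edgeR). CCNE2 shares 1629 exonic bases with INTS8 on the opposite strand, and whether the counting used strand was not given.

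Promoters of some members that fell are shown because E2F factors bind short words near the start of their targets. RefSeq promoters (GRCh38.p14, 250 bases before to 50 after the start) matched 41 of the 47 symbols, and E2F8, CCNE2, MCM4, MCM5, GINS4 and POLD3 had no entry. One of the words TTTCCCGC, TTTGGCGC, TTTCGCGC or TTTGCCGC, on either strand, was present in 22 of these 41 promoters (53.7%), and in 3.31% of 35116 promoters of that length. The same words without their first T, a 7-base core, were in 33 of the 41 (80.5%) and in 13.0% of all. The word CCAAT, on either strand, was in 58.5% of the 41 and in 34.6% of all. The words TTTGAA and TTCGAA, forms of the CHR element of many mitotic genes, were in 4.88% of the 41 and in 16.4% of all. A match is a description of the letters and not evidence of binding. The members were listed as replication and E2F target genes, so a larger share of E2F words among them is not a finding of these data. The other promoters were not matched to them for base composition or expression. The 160 bases before the start follow, 5′ to 3′ in the direction of the gene, with the E2F words and CCAAT words (or their reverse complements) in capitals. E2F1, E2F2, PCNA, GINS1 and CHAF1B were among the 8 genes of steepest fall with BGT226. The other 3 of the 8, RFC4, RRM2 and CDC45, had none of the 4 full E2F words in their promoters, though RFC4 held the core TTCCCGC, and are not printed because their windows lie in exons of GENCODE 29. E2F7, which fell with STA9090+BGT226, is not printed either. Its promoter held 4 CCAAT words and 0 full E2F words, though it held the core TTGGCGC on the opposite strand. MCM6, which is not one of the 8 and was chosen after the matches were seen, holds 4 E2F words in 2 overlapping pairs.
E2F1 (chr20:33686386-33686545, minus strand): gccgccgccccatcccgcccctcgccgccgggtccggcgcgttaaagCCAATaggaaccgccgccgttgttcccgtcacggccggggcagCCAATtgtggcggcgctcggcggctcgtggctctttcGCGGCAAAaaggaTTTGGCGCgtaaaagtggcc
E2F2 (chr1:23531234-23531393, minus strand): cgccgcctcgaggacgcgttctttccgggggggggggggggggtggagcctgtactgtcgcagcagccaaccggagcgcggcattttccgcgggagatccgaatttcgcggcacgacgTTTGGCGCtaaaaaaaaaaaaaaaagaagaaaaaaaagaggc
PCNA (chr20:5126623-5126782, minus strand): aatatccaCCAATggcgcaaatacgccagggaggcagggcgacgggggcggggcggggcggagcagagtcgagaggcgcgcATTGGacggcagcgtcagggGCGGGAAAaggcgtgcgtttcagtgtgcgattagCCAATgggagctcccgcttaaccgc
MCM6 (chr2:135876444-135876603, minus strand): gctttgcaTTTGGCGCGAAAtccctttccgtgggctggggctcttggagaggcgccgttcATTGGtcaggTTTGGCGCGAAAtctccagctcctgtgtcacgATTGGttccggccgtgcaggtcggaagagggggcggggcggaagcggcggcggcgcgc
GINS1 (chr20:25407513-25407672, plus strand): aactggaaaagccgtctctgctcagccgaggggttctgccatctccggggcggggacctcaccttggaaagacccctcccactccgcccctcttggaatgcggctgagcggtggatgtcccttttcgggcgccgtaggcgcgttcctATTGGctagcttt
CHAF1B (chr21:36385232-36385391, plus strand): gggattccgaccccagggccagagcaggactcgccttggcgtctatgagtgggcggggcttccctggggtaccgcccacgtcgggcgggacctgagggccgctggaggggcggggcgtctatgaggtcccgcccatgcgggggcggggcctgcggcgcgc

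The last 19 bases printed for E2F1, 4 for PCNA and 14 for CHAF1B lie in exons of GENCODE 29 transcripts that begin further upstream. E2F1 held E2F words starting 33 and 20 bases before its start, E2F2 42 bases before and PCNA 59 bases before. The MCM6 words began 152, 148, 90 and 86 bases before its start. The CHAF1B promoter held no full E2F word, though it held the core TTCCCGC on the opposite strand, and the GINS1 promoter held 1 that began at base 6 from its start, outside the window shown. These 2 genes fell by 0.77 and 0.58 with BGT226. Among all matched members, the 22 with an E2F word had a median log2 fold change of -0.36 with BGT226 (16 called lower) and the 19 without one had -0.38 (14 called lower). With STA9090+BGT226 the medians were -0.64 (20 of 22 lower) and -0.68 (18 of 19 lower). These 2 sets were not compared by a test, and the set without a word includes promoters with the shorter core.

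The origin recognition and licensing genes were ORC1, ORC6, CDC6, CDT1, the CDT1 inhibitor GMNN (geminin) and MCM2 to MCM7. Of these 11 genes, 9 fell with BGT226 and 10 with STA9090+BGT226, where 15.7% and 20.4% of all genes tested fell. These shares are also the background of the counts by role in the paragraphs below. MCM2, a subunit of the loaded ring, was at 198, 235 and 194 CPM untreated, at 150, 162 and 165 with BGT226 and at 130, 132 and 136 with STA9090+BGT226, without overlap. It shares 1113 exonic bases with the antisense gene AC023593.1. MCM3, MCM4, MCM6 and MCM7 fell with BGT226 by 0.33, 0.43, 0.37 and 0.38, and with STA9090+BGT226 by 0.58, 0.56, 0.48 and 0.69.

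MCM5, another subunit of the same ring, passed the threshold with neither BGT226 nor STA9090+BGT226. Its levels were 138, 158 and 136 CPM untreated, 153, 161 and 151 with BGT226, 178, 174 and 173 with STA9090+PIK75, and 138, 129 and 138 with STA9090+BGT226. Its log2 difference from untreated cells was 0.10 with BGT226 (SE 0.0864) and -0.09 with STA9090+BGT226 (SE 0.0865), and it rose by 0.28 with STA9090+PIK75 (adjusted p = 0.0141, edgeR), a call lost in 2 of 11 alternatives. Whether MCM5 differs from the other subunits was not tested. CDT1 was at 109, 138 and 111 CPM untreated and at 118, 127 and 116 with BGT226, and at 99.4, 94.2 and 87.8 with STA9090+BGT226, where it fell by 0.35 (adjusted p = 0.0197, edgeR). CDC6, which loads the ring together with CDT1, was at 62.6, 57.7 and 59.2 CPM untreated, 48.2, 47.3 and 44.7 with BGT226 and 36, 32.4 and 36.9 with STA9090+BGT226. ORC1, the origin recognition subunit whose level varies through the cycle, was at 20.3, 23.7 and 21.7 CPM untreated, 18, 17.4 and 18.6 with BGT226 and 12.5, 10.9 and 12.3 with STA9090+BGT226. Its fall of 0.28 with BGT226 alone was lost in 6 of 11 alternatives, and its fall of 0.88 with the combination was kept in all of them.

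Helicase activation was covered by the kinase gene CDC7, MCM10, CDC45 and GINS1 to GINS4. Of these 7 genes, 6 fell with BGT226 and all 7 with STA9090+BGT226. CDC45 (chr22:19479459-19520612, plus strand) was at 38.5, 36.8 and 36.2 CPM untreated. PIK75 gave 27.5, 26 and 27.6 CPM, BGT226 gave 25.6, 24.3 and 24.1, STA9090+PIK75 gave 32.2, 33.6 and 33.9, and STA9090+BGT226 gave 17.9, 17.4 and 20. All of these libraries lay below the untreated range. CDC45 fell by 0.46 with PIK75, by 0.59 with BGT226 and by 1.01 with STA9090+BGT226 (adjusted p = 9.05e-05, 2.83e-06 and 2.4e-09, edgeR), and with STA9090+PIK75 the difference was -0.16 (adjusted p = 0.0695, edgeR).

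The 4 GINS subunits form 1 complex. Differences between them were not tested. GINS1 was at 31.3, 39.8 and 35.1 CPM untreated, 21, 24.6 and 24.8 with BGT226 and 15.7, 15.2 and 16.9 with STA9090+BGT226, a fall of 1.15 log2 with the combination (SE 0.095). GINS2 and GINS3 fell by 0.39 and 0.70 with the combination. GINS4 was at 23.1, 24.8 and 19.5 CPM untreated and 24.4, 22.7 and 21.3 with BGT226, which overlapped, and it fell by 0.36 with STA9090+BGT226. GINS4 and GINS2 also rose with STA9090+PIK75, by 0.40 and 0.20, and the GINS2 rise was lost in 8 of 11 alternatives.

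Of the 7 replicative polymerase and primase genes, 1 fell with BGT226, where 15.7% of all genes tested fell. It was POLD3, an accessory subunit of polymerase delta (by 0.35, a call lost in 3 of 11 alternatives). With STA9090+BGT226, 4 of 7 fell, namely POLD1, POLA2, POLD3 and POLE, where 20.4% of all genes tested fell. A list of 7 genes makes a share coarse. POLA1, the catalytic subunit of polymerase alpha, was at 30.3, 26.4 and 30.3 CPM untreated, 26.9, 25.8 and 27.2 with BGT226 and 26.7, 28.1 and 27.8 with STA9090+BGT226. Its log2 difference with the combination was -0.07 (SE 0.0883), and that of PRIM1, the catalytic primase subunit, was 0.05 (SE 0.162). POLE2 was a low gene, at 4.23 to 8.3 CPM over all groups, and passed in no comparison with untreated cells.

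POLD1, the catalytic subunit of polymerase delta, was the 1 member that rose with PIK75. It was at 99, 128 and 110 CPM untreated, 152, 158 and 191 with PIK75, 126, 142 and 128 with STA9090+PIK75, 96.1, 92.9 and 84.2 with BGT226, and 66.4, 73.1 and 70 with STA9090+BGT226. The PIK75 libraries were above, and the libraries of both BGT226 groups below, every untreated library. The rise with PIK75 was 0.57 log2 (SE 0.127, adjusted p = 0.00335, edgeR) and the fall with STA9090+BGT226 was 0.68 (adjusted p = 0.000304). POLD1 was lower with BGT226 than with PIK75 by 0.88 log2 (SE 0.128, adjusted p = 2.76e-05, edgeR). It shares 426 exonic bases with the readthrough annotation AC020909.1 on the same strand, so part of its reads could be assigned to either.

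POLE, the catalytic subunit of polymerase epsilon, fell with STA9090+PIK75 by 0.39 and with STA9090+BGT226 by 0.34, and with PIK75 alone its difference was 0.03. Its libraries with STA9090+PIK75, at 99.1, 117 and 117 CPM, lay below those with PIK75, at 144, 144 and 157.

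**Figure D3:**
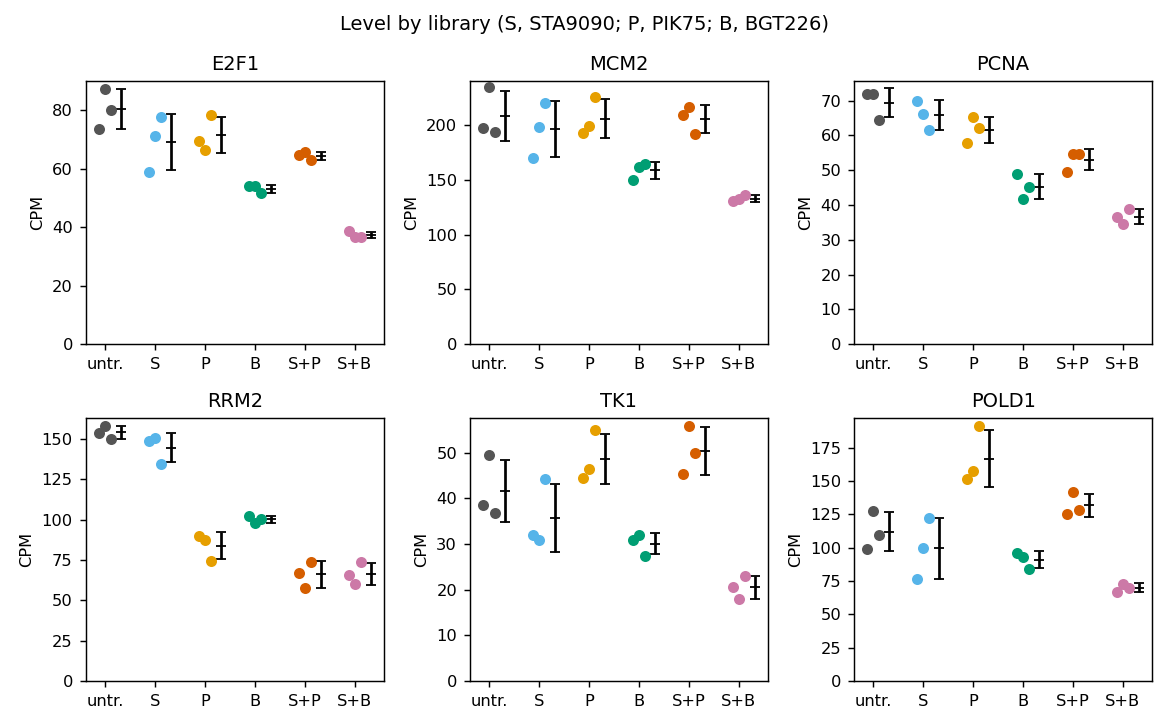
Level in CPM of E2F1, MCM2, PCNA, RRM2, TK1 and POLD1 (6 panels, axes from 0) in each library (points) of the 6 groups, with the group mean and its SD beside the points. RRM2 is low in both PIK75 groups and in both BGT226 groups, and POLD1 is high with PIK75 and low with STA9090+BGT226.

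PCNA, the sliding clamp that tethers polymerases to DNA (chr20:5114953-5126626, minus strand), was at 72, 71.7 and 64.5 CPM untreated, 48.8, 41.7 and 45.2 with BGT226 and 36.6, 34.6 and 38.8 with STA9090+BGT226. These groups did not overlap. It fell by 35% and 47.1% in the fit (adjusted p = 6.53e-06 and 2.8e-08, edgeR). PCNA has named pseudogenes, and its expected counts were whole numbers in every library, so that no division of its reads shows. Of the 7 genes of the clamp, the clamp loader subunits RFC2 to RFC5, the flap nuclease FEN1 and the ligase LIG1, 5 fell with BGT226 and all 7 with STA9090+BGT226.

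RFC4 moved in opposite directions in the 2 combinations. It was at 15.7, 14.9 and 19.2 CPM untreated, 16.4, 15.1 and 13.7 with PIK75, 10.2, 10.6 and 10.9 with BGT226, 21.6, 20.9 and 21.2 with STA9090+PIK75 and 7.66, 9.43 and 9.63 with STA9090+BGT226. Both combinations lay outside the untreated range, above it with PIK75 and below it with BGT226. It rose by 0.36 with STA9090+PIK75 (adjusted p = 0.00933, edgeR; 1 of 11 alternatives lost this call) and fell by 0.89 with STA9090+BGT226 (adjusted p = 3.66e-06, edgeR).

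All 4 genes of deoxynucleotide supply fell with BGT226 and with STA9090+BGT226. RRM2, the cell-cycle-dependent small subunit of ribonucleotide reductase (ENSG00000171848.15, chr2:10120698-10131419, plus strand), was at 154, 158 and 150 CPM untreated and at 149, 150 and 134 with STA9090. PIK75 gave 89.6, 87.6 and 74.1 CPM, BGT226 gave 102, 98.1 and 100, STA9090+PIK75 gave 66.7, 57.5 and 73.8, and STA9090+BGT226 gave 65.5, 60 and 73.8. Every library with a PI3K inhibitor lay below every library without one. RRM2 had the steepest fall of the 47 genes with PIK75, where it fell by 45.6% (adjusted p = 1.29e-06, edgeR), and with STA9090+PIK75, where it fell by 57.1% (adjusted p = 3.66e-09, edgeR). It fell by 34.9% with BGT226 and fell by 56.8% with STA9090+BGT226. The 2 combinations differed in RRM2 by 0.01 log2 (SE 0.094). RRM2 shares 1077 exonic bases with AC007240.1 on the same strand and has 3 named pseudogenes.

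RRM1, the large subunit of the same enzyme, responded less. It was at 48.7, 53.8 and 51.9 CPM untreated, 48.4, 50.9 and 43.5 with PIK75 and 34.5, 36.9 and 35.4 with STA9090+BGT226, a fall of 0.53 with that combination and a difference of -0.11 with PIK75 (SE 0.0713). TK1, the cytosolic thymidine kinase, was at 38.6, 49.5 and 36.8 CPM untreated, 44.5, 46.5 and 55 with PIK75, 45.4, 55.8 and 49.9 with STA9090+PIK75, 30.8, 31.9 and 27.4 with BGT226 and 20.7, 17.9 and 22.9 with STA9090+BGT226. TYMS, the thymidylate synthase, was at 70.7, 74.2 and 67.5 CPM untreated, 45.1, 52.2 and 49.3 with BGT226 and 41.9, 36.8 and 42.1 with STA9090+BGT226. Both genes overlapped the untreated range with PIK75 and lay below it with BGT226. TYMS shares 967 exonic bases with ENOSF1 on the opposite strand.

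The last 6 genes act in chromatin assembly behind the fork (CHAF1A, CHAF1B), maintenance of DNA methylation (UHRF1), fork protection (TIMELESS, CLSPN) and destruction of CDT1 (DTL). With BGT226, 5 fell and CHAF1A did not pass (-0.18, adjusted p = 0.058, edgeR), and with STA9090+BGT226 all 6 fell. CHAF1B was at 23.8, 22.8 and 19.3 CPM untreated, 13.3, 12.9 and 12.5 with BGT226 and 13.9, 12.1 and 14.2 with STA9090+BGT226, so that the 2 BGT226 groups overlapped. TIMELESS was at 137, 134 and 135 CPM untreated, 154, 146 and 157 with PIK75, 172, 172 and 184 with STA9090+PIK75, 105, 104 and 105 with BGT226 and 93.8, 78.8 and 94.5 with STA9090+BGT226. Its libraries did not overlap between any 2 of these 5 groups. It rose by 0.38 with STA9090+PIK75 and fell by 0.60 with STA9090+BGT226 (adjusted p = 0.000382 and 2.61e-06, edgeR), and its difference with PIK75 was 0.17 (adjusted p = 0.108).

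The 2 PI3K inhibitors were compared directly at the stated 20 nM. With BGT226, 24 of the 47 genes were lower than with PIK75 and 1 was higher, with a median of -0.23, where 16.5% of all genes tested were lower and 15.5% were higher. Of these 25 calls, 17 were kept in all alternatives. After POLD1, the widest differences were in TK1 (-0.70), TYMS (-0.62), ORC6 (-0.55) and TIMELESS (-0.54). The 1 higher gene was RRM2 (0.26, adjusted p = 0.0379, edgeR), a call lost in 5 of 11 alternatives, and 0 were higher without PIK75 replicate 2, without PIK75 replicate 3 or without any 1 BGT226 library. Between the combinations, 37 genes were lower with STA9090+BGT226 than with STA9090+PIK75 and 0 were higher, with a median of -0.49, against 20.9% and 22.4% of all genes tested. At an unadjusted p under 0.05, 40 were lower and 0 higher, and DESeq2 called 37 lower and 0 higher. TK1 (-1.29, SE 0.139) and RFC4 (-1.24, SE 0.11) differed most.

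Adding STA9090 to BGT226 lowered 15 of the 47 genes and raised 0, with a median of -0.25, where 1.7% of all genes tested fell and 0.988% rose. At an unadjusted p under 0.05, 31 were lower and 1 was higher, and DESeq2 called 21 lower and 0 higher. Among the 15 called, the 10 of largest change were ORC1 (-0.60), DTL (-0.59), RRM2 (-0.59), GINS1 (-0.56), TK1 (-0.54), E2F1 (-0.51), E2F2 (-0.43), CDC45 (-0.41), CDC6 (-0.41) and POLA2 (-0.40). DTL, whose product marks CDT1 for destruction, was at 61.4, 54.7 and 55.5 CPM with BGT226 and 35.8, 38.8 and 38.9 with the combination. All 3 combination libraries were lower (SE 0.0784, adjusted p = 0.000277, edgeR). In 37 of 47 genes the 2 groups did not overlap and the combination was lower, against 14.6% of all genes tested. The count of 15 became 7 without any 1 of the 3 BGT226 libraries or without STA9090+BGT226 replicate 2, 8 without STA9090+BGT226 replicate 1, 11 without STA9090+BGT226 replicate 3, and 26 when the 2 groups were fitted alone. ORC1, DTL, RRM2, GINS1, E2F1, CDC45 and CDC6 kept their calls in all 11 alternatives. E2F8, at 6.6, 7.18 and 6.54 CPM with BGT226 and 4.47, 4.15 and 5.02 with the combination, differed by -0.56 and did not pass (adjusted p = 0.124, edgeR).

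Adding STA9090 to PIK75 raised 9 of the 47 genes and lowered 3, with a median of 0.09, where 11.3% of all genes tested rose and 14% fell. The rises were POLE2 (0.53), RFC4 (0.49), MCM10 (0.40), RFC3 (0.33), ORC6 (0.32), CDC45 (0.30), RFC5 (0.27), MCM5 (0.25) and TIMELESS (0.21). The falls were POLE (-0.42), RRM2 (-0.34) and PCNA (-0.22). MCM10, which helps to activate the helicase, was at 19.4, 18.7 and 21.6 CPM with PIK75 and 23.9, 27.7 and 26.7 with STA9090+PIK75, and at 16.4, 17.3 and 17.2 with BGT226 and 13.2, 12.4 and 13.9 with STA9090+BGT226. The step was upward in the first pair and downward in the second, with no overlap in either. The count of 9 rises became 5 without PIK75 replicate 1 and 3 without STA9090+PIK75 replicate 1 or replicate 3, and that of 3 falls became 1 without STA9090+PIK75 replicate 2. The median of 0.09 became 0.054 without PIK75 replicate 1. MCM10, RFC4, CDC45 and POLE kept their calls in all alternatives.

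The difference between these 2 steps was tested as a contrast of its own, which was added after the values had been seen. It was negative, meaning a lower step with BGT226 than with PIK75, in 44 of the 47 genes, with a median of -0.30. That count of signs was not tested, since genes measured in the same libraries are not independent. The difference passed the threshold in 15 genes and was positive in 0 of those, where 3.67% of all genes tested passed below 0 and 6.07% above 0. At an unadjusted p under 0.05, 26 were below 0 and 1 above, and DESeq2 called 17 below and 0 above. MCM10 (-0.76, SE 0.124), RFC4 (-0.74, SE 0.157), ORC1 (-0.72, SE 0.145) and CDC45 (-0.71, SE 0.101) differed most, and the smallest adjusted p was 0.000156, for CDC45 (edgeR). Of the 15, 5 were licensing genes (ORC1, ORC6, CDC6, CDT1 and MCM5), 4 acted in helicase activation (MCM10, CDC45, GINS1 and GINS4), 3 were clamp loader subunits (RFC3, RFC4 and RFC5) and 3 were DTL, CHAF1A and TIMELESS. Of 17 alternatives, the call of ORC6 was lost in 12, that of CDT1 in 8, that of RFC3 in 5 and that of MCM5 in 4. For RRM2, POLE and PCNA, which fell when STA9090 was added to PIK75, the difference between steps was -0.25, 0.26 and -0.08 and did not pass.

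**Figure D4:**
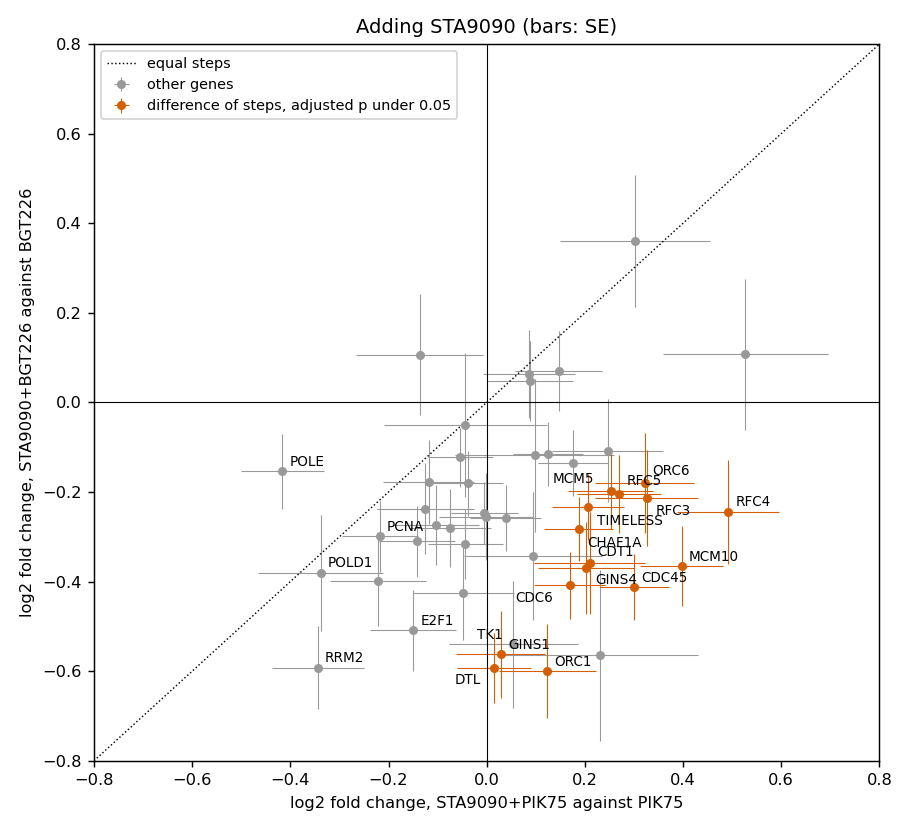
Log2 fold change of each of the 47 genes (points, with SE bars) on adding STA9090 to PIK75 (horizontal axis) and to BGT226 (vertical axis). Coloured points mark the 15 genes whose difference between steps passed the threshold, and 44 of the 47 points lie below the dotted line of equal steps.

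Whether a combination differed from the sum of its single agents on the log2 scale was asked by an interaction term. For STA9090 with PIK75 it was above 0 in 36 of 47 genes (median 0.12) and passed in 4, CDC45 (0.49), CHAF1A (0.43), MCM5 (0.39) and MCM10 (0.39), with 0 below 0, where 3.54% of all genes tested passed above 0 and 5.73% below. For CDC45 and CHAF1A this held in all alternatives, and for MCM5 and MCM10 it was lost in 14 of 17. For STA9090 with BGT226 the term was below 0 in 44 of 47 genes (median -0.19), and 0 passed in edgeR's test, in which 1 gene of all 15787 tested passed (0.00633%). The counts of terms above or below 0 were not tested, since genes measured in the same libraries are not independent. At an unadjusted p under 0.05, 14 were below 0 and 1 above, and DESeq2 called 2 below. The term of smallest p was that of DTL, at -0.53 (SE 0.109, adjusted p = 0.154, edgeR).

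Per kilobase of annotated exon, the members of highest level in untreated cells were PCNA (47.2 ± 2.87 CPM per kb, SD, n = 3), MCM7 (46.5 ± 4.01), MCM3 (45.9 ± 3.02) and MCM2 (42.6 ± 4.68), whose ranges of 1 SD overlap. CDT1 (35.8 ± 4.82), E2F1 (32.1 ± 2.73), RRM2 (28.9 ± 0.75) and TYMS (28.7 ± 1.35) followed. The lowest were CCNE2 (1.77 ± 0.0674), E2F8 (1.95 ± 0.172) and POLE2 (2.23 ± 0.421). The lengths were those of all GENCODE 29 exons of a gene joined, which need not be the transcripts used in these cells.

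Other genes of the pathway were 95 in 7 lists, of which 94 were tested. With BGT226, 34 (36.2%) fell and 6 (6.38%) rose, against 15.7% and 12.8% of all genes tested, with a median of -0.19. With STA9090+BGT226, 45 (47.9%) fell and 12 (12.8%) rose, against 20.4% and 19.4%, with a median of -0.25. With PIK75, 9 (9.57%) fell and 14 (14.9%) rose, against 10.2% and 8.49%. With STA9090+PIK75, 21 (22.3%) fell and 22 (23.4%) rose, against 20.1% and 18.3%, and with STA9090, 1 (1.06%) fell and 2 (2.13%) rose, against 1.68% and 1.16%. The same shares of all genes stand as the background of the counts by list that follow, where lists of 9 to 20 genes make a share coarse. Among 15 partners of E2F and the retinoblastoma protein, 4 fell and 2 rose with BGT226. MYBL2, a factor of the late cell cycle and an E2F target, fell by 0.76 with BGT226 and 1.26 with STA9090+BGT226, from 125 ± 7.42 CPM untreated to 74.0 ± 4.75 and 52.1 ± 3.51. FOXM1, which drives mitotic genes, fell by 0.59 and 1.08. E2F4, a repressor-type E2F of resting cells, fell by 0.32 with BGT226, and RB1 passed in none of the 5 comparisons with untreated cells.

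Among 15 tested cyclins, kinases and inhibitors of the G1 to S transition, 10 fell and 2 rose with BGT226, and 5 fell and 2 rose with PIK75. CDC25A, a phosphatase that activates cyclin-dependent kinases, fell by 0.92 with BGT226, and CDKN1A, the inhibitor p21, fell by 1.65 with STA9090+BGT226, 1.37 with BGT226 and 1.07 with STA9090+PIK75. CDKN1A went from 96.8 ± 9.92 CPM untreated to 37.4 ± 1.61 with BGT226 and 30.7 ± 2.75 with STA9090+BGT226. CCNE1, the paralogue of CCNE2, fell by 0.54 with PIK75 and 0.35 with STA9090+BGT226, and CDK2 fell by 0.31 with BGT226. CCND1 rose by 2.09 with BGT226, but it was at 0.149 ± 0.0659 CPM untreated and 0.649 ± 0.333 with BGT226.

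Of 10 other nucleotide supply enzymes, 5 fell with BGT226 and 0 rose, with NME1 (-0.78) and DUT (-0.48) among them. Of 10 other chromatin factors of replication, 5 fell, DNMT1, the maintenance DNA methyltransferase, by 0.56. Of 20 other polymerase and fork factors, 6 fell and 1 rose with BGT226, and with STA9090+PIK75 10 rose and 1 fell, RPA2, a subunit of the single-strand binding protein, by 0.75. Of 15 other licensing and firing factors, 8 rose and 3 fell with STA9090+PIK75, where ORC3 rose by 1.01 and DONSON fell by 0.88. Of 9 checkpoint genes, 1 fell with BGT226, ATRIP, the partner of the kinase ATR, by 0.29.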

How the data were processed

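RNA sequencing libraries of NCI-H295R cells (6 groups, 3 biological replicates each, 18 libraries) were made from total RNA depleted of ribosomal RNA with a stranded kit, per the labels' protocols. The deposited table holds raw expected counts, 1 row per gene and 1 column per library. Per the submitters' processing notes, RSEM 1.3.1, STAR 2.7.0f, cutadapt 1.18, bcl2fastq 2.20 and hg38 were used. Neither the counting strand nor the annotation release is given in the sources used here.

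Expected counts were rounded (library totals changed by at most 0.000381%), filtered with filterByExpr (minimum count 10, minimum total 15) and scaled by TMM (factors 0.903 to 1.13) in edgeR 4.0.16 under R 4.3.3. CPM are expected counts per 1 M with those factors. 1 quasi-likelihood model held all 18 libraries with a mean per group (biological coefficient of variation 10.6%), and p was adjusted by Benjamini-Hochberg over 15787 genes within each of 12 comparisons. Log2 fold changes used a prior count of 0.125, and the SE is their size divided by the square root of F. In data simulated for BGT226 against untreated with 200 changed genes, 25% of changes of 0.5 log2 and 89% of changes of 1 were recovered. In the measured comparison 15.7% of all genes tested fell and 12.8% rose, and recovery with that many changes was not tested.

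As alternatives, RLE size factors, an unfiltered table, DESeq2 1.42.0, the compared groups fitted alone, the replicate number as a block and each left-out library were tried. Same-numbered libraries did not deviate together, so the numbers were not taken to pair libraries. All members could be named, the 10 of largest change first, and up to 4 genes of each other list with the smallest adjusted p, plus E2F4, RB1, CCNE1, CDK2, CDKN1A and CCND1. The members, lists, comparisons and this rule were chosen with earlier results of these data known. Gene positions came from GENCODE 29 (all 47 IDs matched when the version was ignored, 11 with it) and promoters from RefSeq (GRCh38.p14).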

Additional observations from a re-analysis of the deposited data

Results flagged for a closer look

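Results are listed here because a test found that the effect of STA9090 differed between the backgrounds in which it was given. Against its effect in cells without a PI3K inhibitor, the STA9090 step in PIK75-treated cells was higher on the log2 scale for CDC45 (0.49, adjusted p = 0.00316), CHAF1A (0.43, adjusted p = 0.00978), MCM10 (0.39, adjusted p = 0.0451) and MCM5 (0.39, adjusted p = 0.0482), by edgeR's quasi-likelihood test with Benjamini-Hochberg adjustment. Of all genes tested, 3.54% passed above 0 in this term. The calls of MCM10 and MCM5 were lost in 14 of 17 alternatives. CDC45 fell with PIK75 alone and with STA9090+PIK75 lay between PIK75 and untreated cells in all 3 libraries.

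Against its step in PIK75-treated cells, the STA9090 step in BGT226-treated cells was lower for 15 genes, a contrast chosen after the values were seen. In helicase activation these were MCM10 (-0.76), CDC45 (-0.71), GINS1 (-0.59) and GINS4 (-0.57). In origin licensing they were ORC1 (-0.72), CDC6 (-0.58), CDT1 (-0.57), ORC6 (-0.50) and MCM5 (-0.45). Among clamp loader subunits they were RFC4 (-0.74), RFC3 (-0.54) and RFC5 (-0.47). The remaining 3 were DTL (-0.61), CHAF1A (-0.47) and TIMELESS (-0.44). The adjusted p of these 15, in edgeR's test, ran from 0.000156 for CDC45 to 0.04 for ORC6, and 3.67% of all genes tested passed below 0. Of 17 alternatives, the call was lost in 12 for ORC6, 8 for CDT1, 5 for RFC3 and 4 for MCM5.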

How the results depend on the processing

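No called change of a gene and no median of the members changed sign under any of the 23 alternative settings, of which 18 left out 1 library each. Counts of called members that differed from the main analysis by more than 1.5 times were these. For STA9090 against untreated cells, the falls went from 0 to 1 without the filter and 3 with DESeq2. For STA9090+PIK75 against PIK75, the rises went from 9 to 5 without the filter. For STA9090+BGT226 against BGT226, the falls went from 15 to 26 with the groups fitted alone. For BGT226 against PIK75, the rises went from 1 to 2 without the filter and with the groups fitted alone. For the STA9090 by PIK75 interaction, 4 became 2 with RLE, without the filter, with the groups fitted alone and with the replicate block. For the STA9090 by BGT226 interaction, 0 became 2 below 0 without the filter and with DESeq2. The replicate block changed no other count by that much. Of 45 pairs of libraries with the same number in different groups, 11 correlated above 0.1 in their deviations (median -0.03), and 3 of 18 libraries correlated best with their own number. With 1 library left out, the falls with STA9090 ran from 0 to 1, those on adding STA9090 to BGT226 from 7 to 11, the rises on adding STA9090 to PIK75 from 3 to 7 and the falls from 1 to 3, the rises in BGT226 against PIK75 from 0 to 1 and those in the STA9090 by PIK75 interaction from 2 to 4. Medians then ran from -0.10 to -0.042 for STA9090, -0.14 to -0.078 for PIK75, -0.42 to -0.33 for BGT226, -0.10 to -0.045 for STA9090+PIK75, -0.68 to -0.61 for STA9090+BGT226, 0.054 to 0.12 for adding STA9090 to PIK75, -0.31 to -0.24 for adding it to BGT226, -0.26 to -0.21 for BGT226 against PIK75, -0.57 to -0.49 between the combinations, 0.11 to 0.15 and -0.23 to -0.16 for the interactions with PIK75 and BGT226, and -0.33 to -0.27 for the difference of steps. A left-out library leaves fewer samples, and the cause of the other shifts was not tested. With 3 libraries a group and 200 changed genes, most changes of 0.5 log2 were not recovered in simulated data. Recovery at the share of genes called here was not tested, so members that missed the threshold are not shown to be unchanged.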
